A study of Mus musculus with 2 samples.

Results

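The mitochondrial carriers of the Slc25 family are the proteins that move metabolites, nucleotides, cofactors and ions across the inner membrane of mitochondria. Their genes were taken as all genes with an annotated symbol starting with Slc25a, together with the uncoupling protein genes Ucp1, Ucp2 and Ucp3. By this rule 46 of the 18193 genes on the array were members. They were covered by 96 probe sets that name a single gene, out of 45037 probe sets, and 1 further probe set names Slc25a37 together with another gene. No probe set names Ucp2, Slc25a21 or Slc25a43 here, so these family genes are not analysed.

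The cells were primary mouse RPE (retinal pigment epithelium, a pigmented sheet that supports the photoreceptors). The IFNg group was 1 culture that received interferon gamma, a cytokine released by activated lymphocytes, for 24 h at a dose of 100 U/ml. The untreated group was 1 culture without it. Both cultures were grown in medium with 20% fetal bovine serum, moved to serum-free medium overnight before RNA was taken, and were 95% cytokeratin-positive after 14 days. The sources used here give no strain, age or number of animals for either culture. Each culture was hybridised to 1 oligonucleotide array. No test and no p-value was possible with 1 array for each group, the number of arrays limits the precision, and an effect of the culture or the array cannot be told apart from that of IFNg. Higher and lower therefore describe these 2 arrays.

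Carriers share a fold of 6 membrane-spanning helices built from 3 repeats, and most of them exchange 1 substrate for another. The adenine nucleotide carriers send ATP to the cytosol and bring ADP back, and the phosphate carrier supplies phosphate for ATP synthesis. Other members link the citric acid cycle, amino acid breakdown, fatty acid oxidation, heme and iron-sulfur cluster synthesis and nucleotide supply of the matrix to the cytosol. RPE is rich in mitochondria and is known for its reliance on oxidative metabolism.

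Signals are deposited linear intensities. A signal under 20.4, the median over both arrays, was set to that floor, and a gene was called measured when 1 or both arrays reached it. Signals of different probe sets are not on a common scale, so each gene is compared only between the 2 arrays. All 7 measured genes of a list of known IFNg targets passed 2-fold, each with the higher signal in the IFNg culture. Cd274, the gene for PD-L1, had signals of 419.5 with IFNg and 13.6 untreated, and the interferon-regulated transcription factor gene Irf1 had 3391.1 and 319.1. Of 13 RPE markers 10 were measured, 7 of them with a log2 ratio below 0 and 4 at least 2-fold lower, with a median of -0.41, and Rpe65, Best1 and Dct were under the floor on both arrays. Their summed signals, 4312.2 with IFNg and 4040.3 untreated, go the other way because of 1 gene, Krt18, with 2445.9 with IFNg and 1390.4 untreated. Fibroblast and mesenchymal markers were above the floor in 8 of 8 cases, 6 of them with a log2 ratio below 0, with a median of -0.18 and summed signals of 58157.8 with IFNg and 64262.6 untreated. Such sums weigh the brightest probe sets most. Of 12 macrophage markers 9 were measured, all 9 with a log2 ratio below 0 and 3 at least 2-fold lower, with a median of -0.67. Their summed signals were 852.4 with IFNg and 1354.3 untreated, the greater share from Lyz2 on the IFNg array (486.5 with IFNg and 660.8 untreated). Among them Itgam, Aif1 and Cx3cr1 were under the floor on both arrays. Beside these marker counts, 57.4% of all measured genes had a log2 ratio below 0 and 4.48% were at least 2-fold lower. Fewer cells of a type and less RNA per cell cannot be told apart in such bulk samples, and the part of other cell types in the values below was not tested.

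As a family, the carriers differed little between the cultures. Of the 46 genes, 39 were measured, 36 of them above the floor on both arrays. At least 2-fold higher with IFNg were 3 carriers, Slc25a36, Slc25a37 and Slc25a46, which is 7.69% of those measured, beside 8.82% of all 12750 measured genes. At least 2-fold lower were 2 carriers, Slc25a23 and Slc25a29, which is 5.13%, beside 4.48% of all measured genes. Both shares lie near those of all genes, so the counts are not a result about the carriers. The other 34 lay within 2-fold. At the lower threshold of 1.5-fold, 5 carriers were higher (12.8%, beside 17.9% of all measured genes) and 6 were lower (15.4%, beside 18.7%). The median log2 ratio of IFNg over untreated was -0.16 for the carriers, against -0.12 for all measured genes. A ratio below 0 was found for 28 of 39 carriers (71.8%), against 57.4% of all measured genes. At the settings reported here, the carriers' log2 ratios ran between -1.16 and 1.25.

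**Figure D1:**
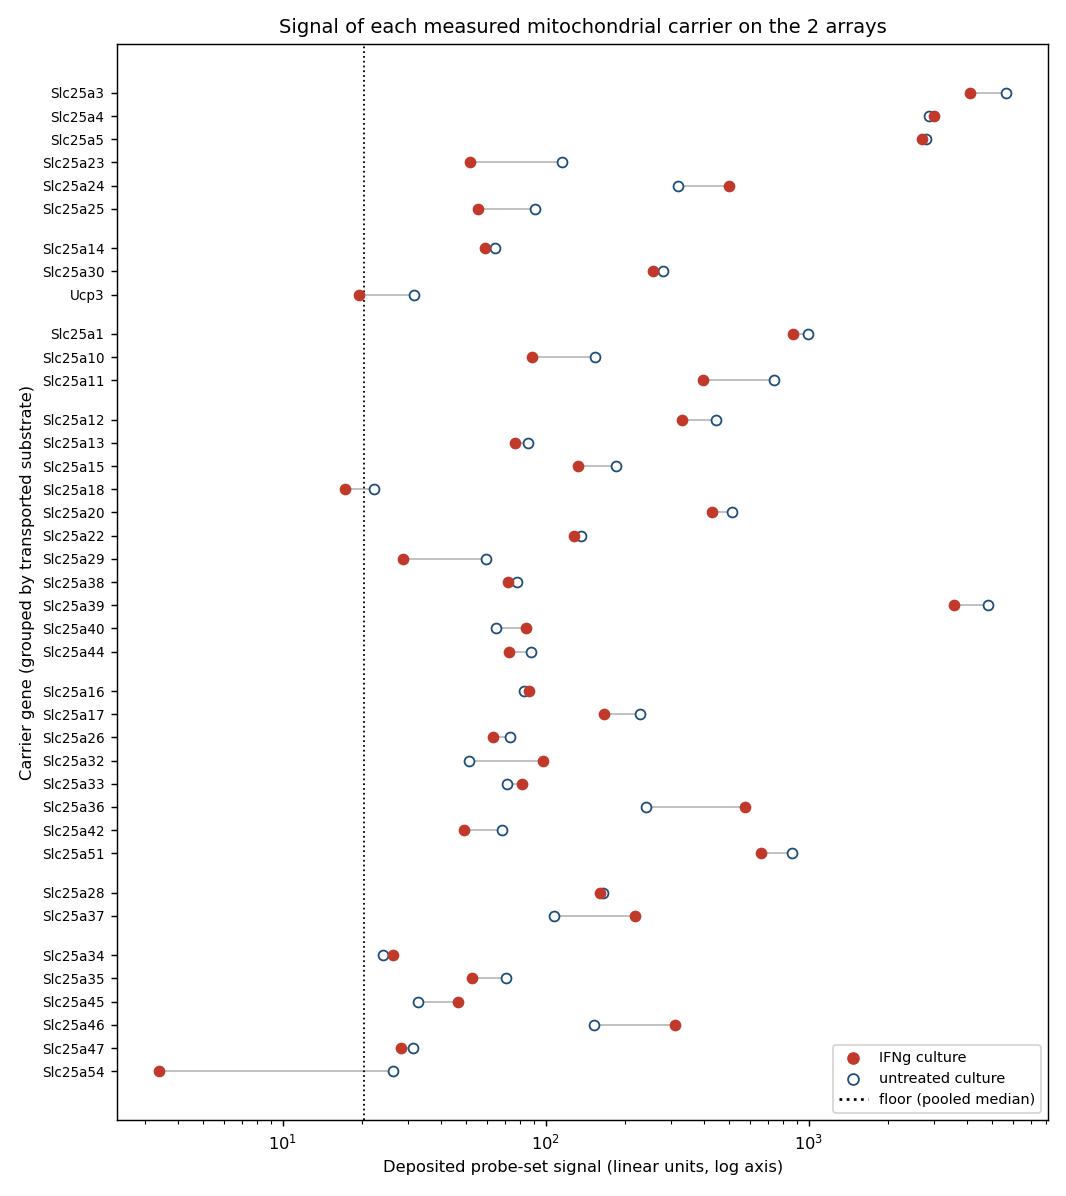
Deposited signal of each of the 39 measured carriers (horizontal log axis, linear intensity units) with IFNg (filled) and untreated (open), grouped by transported substrate, with the floor of 20.4 as a dotted line. Slc25a36, Slc25a37, Slc25a46 and Slc25a32 lie clearly to the right with IFNg, Slc25a23, Slc25a29, Slc25a11 and Slc25a10 lie to the left, Slc25a54 has the widest gap (3.4 with IFNg and 26.4 untreated, across the floor), and most other pairs lie closer together; levels of different genes are not comparable.

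**Figure D2:**
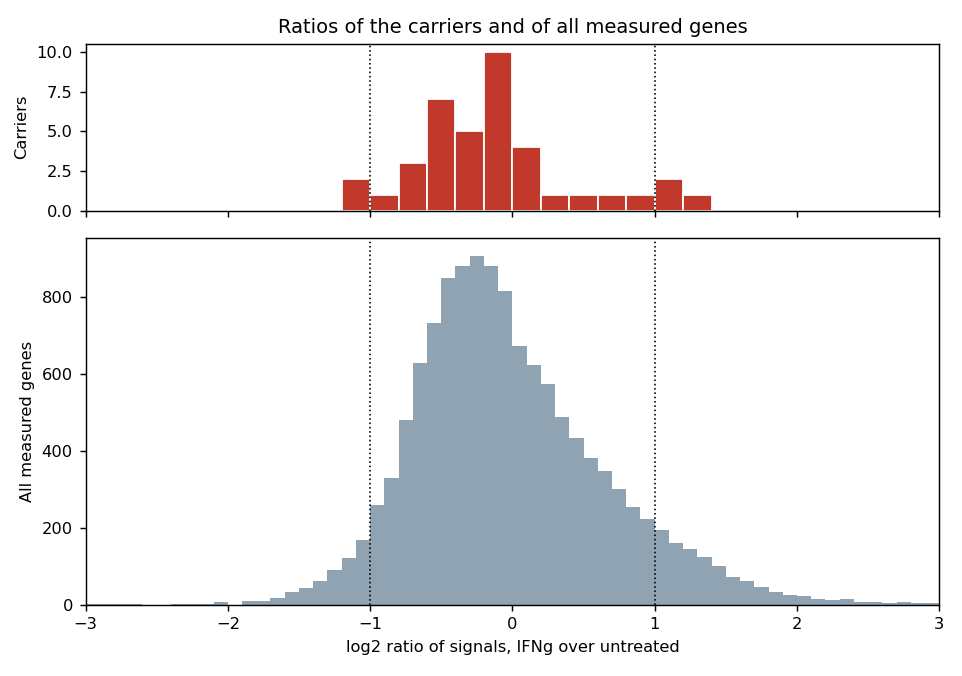
Number of carriers (top) and of all measured genes (bottom) by log2 ratio of IFNg over untreated, with dotted lines at 2-fold in each direction. Carriers spread over -1.16 to 1.25 inside the bulk of all genes, and the 60 genes at 3 or above on this log2 scale, which lie outside the plotted range, include no carrier.

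Probe sets of a gene give the only measure of spread in this design, and it is technical. Over the 4422 genes with several probe sets above the floor on both arrays, their log2 ratios differed with an SD of 0.44, and over the 13 such carriers with an SD of 0.47. A 2-fold difference on 1 probe set is thus a little over 2 such SDs. By probe set, 72 of the 96 were measured, 4 of them at least 2-fold higher with IFNg (5.56%, beside 9.65% of all measured probe sets) and 7 at least 2-fold lower (9.72%, beside 4.42%). At least 1.5-fold higher were 7 (9.72%, beside 19.7%) and at least 1.5-fold lower 14 (19.4%, beside 16.9%). The 7 past 2-fold lower come from 6 genes, since Slc25a29 has 2 of them, and for 4 of those genes, Slc25a10, Slc25a15, Slc25a20 and Slc25a30, the brighter probe set chosen for the gene was within 2-fold. Of 17 carriers with 2 or more measured probe sets, 11 had them all on one side of 0 and 6 on both sides.

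**Figure D3:**
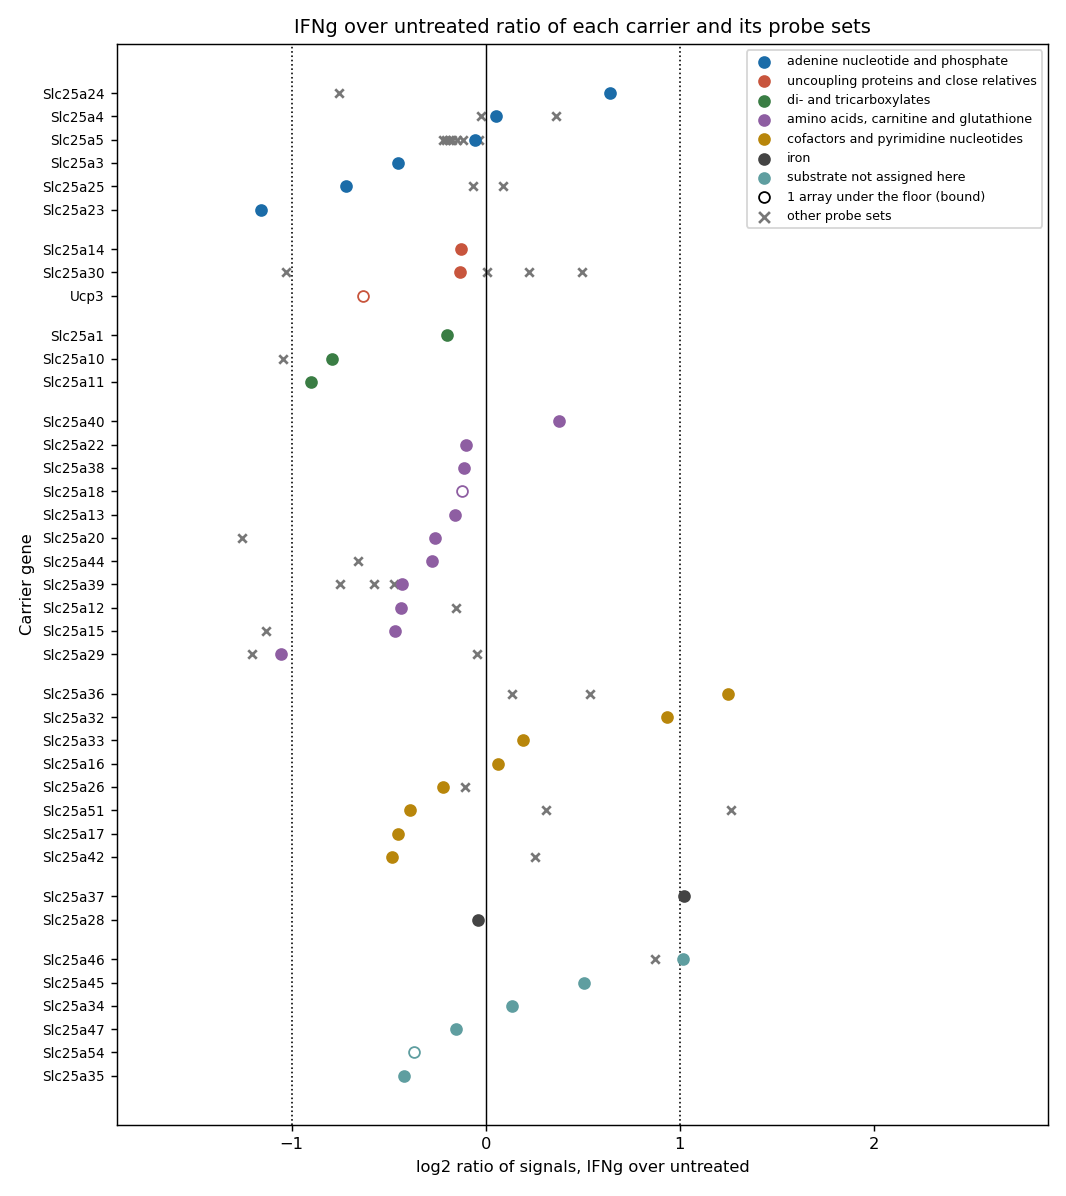
Log2 ratio of IFNg over untreated (horizontal axis) for each measured carrier, coloured by transported substrate, with open circles where 1 array was under the floor and the value is a bound, and crosses for the gene's other measured probe sets, some of them (in Slc25a12, Slc25a15, Slc25a26, Slc25a30 and Slc25a42) also bounds. Dotted lines mark 2-fold; crosses of Slc25a24, Slc25a30, Slc25a36, Slc25a29 and Slc25a51 lie over 1 log2 unit from another probe set of the same gene.

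Carriers of pyrimidine nucleotides and cofactors included Slc25a36, 1 of the 3 genes past 2-fold higher. All 8 genes of this class named by a probe set were measured. Of them 1 was at least 2-fold higher (12.5%, beside 8.82% of all measured genes) and 2 were at least 1.5-fold higher (25%, beside 17.9%). None was 1.5-fold lower (beside 18.7%), and the median log2 ratio was -0.08. A class of 8 genes is too small to set against these shares. Slc25a36, a carrier of pyrimidine nucleotides into the matrix, had signals of 570.7 with IFNg and 240.0 untreated, a 2.38-fold higher value (log2 ratio 1.25). Its other probe sets had 105.7 with IFNg and 72.7 untreated (1.45-fold higher), and 24.3 with IFNg and 22.1 untreated (1.10-fold higher). All 3 were higher with IFNg, but only the brightest passed 2-fold, and their mean log2 ratio was 0.64. That is below the mean of the 2 probe sets of Slc25a46 (0.94) and the value of the 1 probe set of Slc25a37 (1.02). The mean of Slc25a36 includes its dimmest probe set, close to the floor, and those of Slc25a46 and Slc25a37 are not, so the 3 values are not like for like. The related pyrimidine nucleotide carrier Slc25a33 had 81.4 with IFNg and 71.3 untreated, within 1.5-fold.

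Slc25a32, which carries folate or flavin adenine dinucleotide into mitochondria, had signals of 97.6 with IFNg and 51.1 untreated, 1.91-fold higher and just under the 2-fold threshold. Its other 2 probe sets were under the floor on both arrays, so that this ratio rests on 1 probe set. Slc25a51, the NAD carrier, had 660.0 with IFNg and 864.2 untreated by its brightest probe set, 1.31-fold lower. The dimmer ones went the other way, with 284.7 and 229.1, and with 49.8 and 20.7 (2.41-fold higher, the lower signal almost at the floor). No single direction can be given for Slc25a51.

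Within 1.5-fold were also the coenzyme A carrier Slc25a42 (48.9 with IFNg and 68.3 untreated), the peroxisomal cofactor carrier Slc25a17 (167.2 and 229.0, in the same order), the S-adenosylmethionine carrier Slc25a26 (62.9 and 73.2) and Slc25a16 (86.5 and 82.7). The log2 ratio of Slc25a16, 0.06, fell below 0 when the arrays were brought to a common 75th percentile or quantile-normalised. A dimmer probe set of Slc25a42, under the floor in the untreated culture, was at least 1.19-fold higher with IFNg.

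Since Slc25a36 had the highest ratio by the brightest probe set, its promoter is shown, a choice made after its values were seen. Short motifs were searched on both strands in the 250 bases before each RefSeq gene start (build GRCm38.p6). Of the 46 carriers, 36 were matched to 45 promoters, and shares are given beside those of all 32851 promoters of that length. The Slc25a36 sequence is chr9:97111042-97111291 on the minus strand. It runs 5′ to 3′ on the gene's strand and ends at the base before the start. Capitals mark an E-box (CACGTG, bound by MYC and related factors) 187 to 182 bases before the start and a cAMP response element (TGACGTCA, bound by CREB) at 161 to 154, which do not overlap.
Slc25a36: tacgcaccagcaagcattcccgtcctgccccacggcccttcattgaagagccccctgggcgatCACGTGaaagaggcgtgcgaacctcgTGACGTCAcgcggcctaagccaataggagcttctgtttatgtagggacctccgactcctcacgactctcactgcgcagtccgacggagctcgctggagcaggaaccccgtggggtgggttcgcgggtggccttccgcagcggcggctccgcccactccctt
A match is a description of letters and not evidence of binding.

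The interferon-stimulated response element, GAAA and GAAA with any 2 bases between them, bound by IRF factors, was found in 2 of 45 carrier promoters (4.44%), beside 2.98% of all promoters. They belong to the ornithine carrier Slc25a15 and the glutamate carrier Slc25a22, neither of which was higher with IFNg. Slc25a37 and Slc25a46, both at least 2-fold higher, and Slc25a32 and Slc25a51 had no matched promoter. They were searched for none of the motifs, so nothing can be said of their promoters. The ETS motif CCGGAAG, bound by GABPA and related factors, was found in 6 of 45 (13.3%, beside 6.91%), the NRF1 motif, GCGCA and GCGC with any 1 base between them, in 2 of 45 (4.44%, beside 3.74%) and the cAMP response element in 2 of 45 (4.44%, beside 1.55%). Besides Slc25a36, the cAMP response element was in 1 of the promoters of Slc25a25, which was 1.65-fold lower with IFNg by its brightest probe set. The E-box was found in 8 of 45 (17.8%, beside 6.02%), in Slc25a1, Slc25a13, Slc25a14, Slc25a15, Slc25a31, Slc25a33 and Slc25a36. Slc25a14 holds 2 of the 8 because overlapping promoters of that gene contain the same site.

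Iron enters the matrix through the mitoferrins, and only 1 of the 2 mitoferrin genes passed 2-fold. Slc25a37, mitoferrin 1, known for iron supply to heme synthesis in red cell precursors, had signals of 218.0 with IFNg and 107.3 untreated, 2.03-fold higher. This value rests on the 1 probe set that names Slc25a37 alone. The probe set that it shares with another gene had 0.9 with IFNg and 1.0 untreated, under the floor. Slc25a28, mitoferrin 2, the form of most other tissues, had 160.6 with IFNg and 165.0 untreated. The difference between these 2 genes in log2 ratio, 1.02 against -0.04, was not tested.

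Slc25a46 encodes an outer membrane protein of the family that takes part in mitochondrial fusion and fission and lipid handling. Its signals were 310.0 with IFNg and 153.2 untreated, 2.02-fold higher, and its other probe set had 199.0 and 108.8, 1.83-fold higher. Both probe sets of Slc25a46 were higher with IFNg and differed by 0.15 on the log2 scale. Slc25a37 and Slc25a46 lie at the threshold: their log2 ratios were 0.94 each with a common 75th percentile, and Slc25a36 alone then passed 2-fold. Other members without an assigned substrate were within 1.5-fold by their log2 ratios, among them Slc25a45 (46.3 with IFNg and 32.6 untreated, 1.42-fold higher), Slc25a35 (52.7 and 70.6, 1.34-fold lower), Slc25a34 (26.4 and 24.0) and Slc25a47 (28.1 and 31.2). Slc25a54 had signals of 3.4 with IFNg and 26.4 untreated, at least 1.29-fold lower. For Slc25a54 the size is only a bound, since its log2 ratio was -2.19 when the floor was moved down to the 25th percentile of both arrays.

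Adenine nucleotide and phosphate carriers had 6 measured genes, with a median log2 ratio of -0.25. Of these 1 was at least 2-fold lower (16.7%, beside 4.48% of all measured genes). At 1.5-fold, 2 were lower (33.3%, beside 18.7%) and 1 was higher (16.7%, beside 17.9%). So few genes cannot be set against these shares. The ADP/ATP carriers barely differed. Slc25a4, the form of heart and muscle, had 2987.8 with IFNg and 2877.9 untreated, and Slc25a5, the form of dividing cells, had 2692.9 with IFNg and 2794.6 untreated. All 8 probe sets of Slc25a5 had log2 ratios between -0.22 and -0.03, and the 3 measured ones of Slc25a4 lay between -0.02 and 0.36. The signs of these small ratios turn with the scaling, for Slc25a4 with a common 75th percentile and for Slc25a5 with quantile normalisation and with a loess curve. Slc25a31, the testis form, was under the floor on both arrays. The phosphate carrier Slc25a3 had 4127.7 with IFNg and 5638.1 untreated, 1.37-fold lower.

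The ATP-Mg/phosphate carriers, which adjust the adenine nucleotide content of the matrix and are mostly regulated by calcium, were measured in 3 of 4 genes. Slc25a23 had signals of 51.6 with IFNg and 115.0 untreated, 2.23-fold lower, from 1 probe set. Slc25a25 had 55.5 with IFNg and 91.5 untreated, 1.65-fold lower, but its 2 dim probe sets were at 24.0 and 25.1, and at 21.9 and 20.6, close to the floor. Slc25a24 had 496.1 with IFNg and 318.7 untreated, 1.56-fold higher, whereas its dimmer probe set had 50.9 with IFNg and 85.9 untreated, 1.69-fold lower. The probe sets of Slc25a24 thus disagree by 1.39 log2 units, and their mean log2 ratio was -0.06. Slc25a41 was under the floor.

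Carriers of di- and tricarboxylates, which connect the citric acid cycle to the cytosol, were all 3 lower with IFNg, 2 of them by at least 1.5-fold and none by 2-fold, with a median log2 ratio of -0.79. Of all measured genes, 18.7% were at least 1.5-fold lower and 57.4% had a ratio below 0, and 3 genes are too few to set against these shares. Slc25a11, which exchanges oxoglutarate for malate in the malate-aspartate shuttle, had 396.2 with IFNg and 740.0 untreated, 1.87-fold lower. Slc25a10, the dicarboxylate carrier for malate and succinate, had 88.8 with IFNg and 153.8 untreated, 1.73-fold lower, and its other probe set had 35.4 and 73.0, 2.06-fold lower. Both probe sets of Slc25a10 therefore went the same way. Slc25a1, the citrate carrier that supplies cytosolic acetyl-CoA for lipid synthesis, had 870.5 with IFNg and 998.9 untreated, 1.15-fold lower. Their direction was the same under each of the 4 other scalings tried. For Slc25a10 and Slc25a11 this says little, since the scalings moved ratios far less than these differences. Slc25a1 came nearest to 0, with a log2 ratio of -0.05 with a loess curve.

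The promoters of Slc25a10 and Slc25a11, the pair of this class with the larger differences, are also given, chosen after their values were seen. None of the 5 motifs was found in them, so these sequences are in lower case throughout. Slc25a40 and Slc25a45, both higher with IFNg, also held none, while Slc25a3 and Slc25a17, both lower, held some. A link between motifs and ratios was not tested. Slc25a10 is at chr11:120491587-120491836 on the plus strand and Slc25a11 at chr11:70647040-70647289 on the minus strand.
Slc25a10: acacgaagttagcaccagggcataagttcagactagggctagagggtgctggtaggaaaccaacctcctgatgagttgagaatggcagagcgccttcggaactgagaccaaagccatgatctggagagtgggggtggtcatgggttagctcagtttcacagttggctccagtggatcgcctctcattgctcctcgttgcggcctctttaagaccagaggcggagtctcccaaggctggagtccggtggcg
Slc25a11: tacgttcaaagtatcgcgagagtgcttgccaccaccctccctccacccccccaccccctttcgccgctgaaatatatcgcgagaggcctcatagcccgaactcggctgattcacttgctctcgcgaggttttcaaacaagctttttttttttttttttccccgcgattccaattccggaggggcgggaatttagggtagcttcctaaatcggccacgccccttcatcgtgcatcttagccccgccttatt
Their GC content was 56% and 53.2%, against 64.4% for Slc25a36.

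Carriers of amino acids, carnitine and glutathione were measured in 11 of 12 genes, 10 of which had a log2 ratio below 0 (90.9%, beside 57.4% of all measured genes). Only 1 passed 2-fold or 1.5-fold in either direction, and the median was -0.26. This 1 gene, at least 2-fold lower, is 9.09% of those measured. The shares of all measured genes were 4.48% at least 2-fold lower and 18.7% at least 1.5-fold lower. The difference from these shares was not tested. When probe sets with IDs that mark shared sequence were left out, Slc25a39 also passed 1.5-fold lower, with a log2 ratio of -0.75. Slc25a29, a carrier of basic amino acids, had signals of 28.6 with IFNg and 59.5 untreated, 2.08-fold lower. A probe set with a neighbouring ID had 24.3 and 56.0 (2.30-fold lower), while another had 28.4 with IFNg and 29.3 untreated, and the remaining 2 were under the floor. With all its probe sets averaged, the log2 ratio of Slc25a29 was -0.46. That average counts the 2 probe sets under the floor as a log2 ratio of 0, which draws it to within 1.5-fold.

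The aspartate-glutamate carriers of the malate-aspartate shuttle were within 1.5-fold. Slc25a12 (aralar) had 329.3 with IFNg and 444.9 untreated, and Slc25a13 (citrin) had 76.6 with IFNg and 85.5 untreated. Of the glutamate carriers, Slc25a22 had 127.7 with IFNg and 136.9 untreated, and Slc25a18 had 17.2 and 22.2, around the floor. The ornithine carrier Slc25a15, which serves the urea cycle, had 133.4 with IFNg and 184.5 untreated, 1.38-fold lower, and a dimmer probe set had 8.3 and 44.7, at least 2.19-fold lower. Slc25a2, its close copy in the family, was under the floor on both arrays.

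Slc25a20, which brings acylcarnitines into the matrix for fatty acid oxidation, had 428.4 with IFNg and 513.2 untreated, and both probe sets were lower with IFNg. Its other probe set, whose ID marks shared sequence, had 121.6 and 290.5, 2.39-fold lower, so the size of its difference is uncertain by almost 1 log2 unit. The glutathione carrier Slc25a39 had 3573.2 with IFNg and 4822.6 untreated, 1.35-fold lower, and its other 3 measured probe sets were 1.39-fold to 1.68-fold lower. Only 1 of the measured probe sets of Slc25a39 has an ID that does not mark shared sequence. It had 334.9 with IFNg and 563.0 untreated, 1.68-fold lower. Slc25a40, a relative of Slc25a39, had 84.3 with IFNg and 64.9 untreated, 1.30-fold higher. The carrier of branched-chain amino acids, Slc25a44, had 72.6 with IFNg and 88.1 untreated by one probe set and 55.7 with IFNg and 88.0 untreated by another. The glycine carrier of heme synthesis, Slc25a38, had 71.7 with IFNg and 77.6 untreated.

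Uncoupling proteins, which let protons back into the matrix without ATP synthesis, and their close relatives were measured in 3 of 5 genes, none past 2-fold in either direction and all with a log2 ratio below 0, with a median of -0.13. A ratio below 0 was found for 57.4% of all measured genes, and 3 genes are too few to set against it. Ucp1, the heat-producing form of brown fat, had 3.5 with IFNg and 2.3 untreated. Ucp3, known from skeletal muscle and brown fat, reached the floor only in the untreated culture, with signals of 19.6 with IFNg and 31.6 untreated, at least 1.55-fold lower. Of the adipocyte markers, Adipoq, Cidea and Lep were also under the floor on both arrays, and Fabp4 had 25.6 with IFNg and 34.6 untreated. Of 6 striated muscle markers 4 were measured, among them Actc1 (21.3 with IFNg and 63.8 untreated) and Acta1 (44.7 and 88.8), which were lower with IFNg as Ucp3 was, and Ckm (25.2 and 12.5) and Mb (27.8 and 5.1), which were higher. Their part in the Ucp3 value was not tested. Of the close relatives of uncoupling proteins, Slc25a14 had 58.9 with IFNg and 64.3 untreated and Slc25a30 had 255.3 with IFNg and 279.9 untreated. Further probe sets of Slc25a30 had 157.8 with IFNg and 157.0 untreated, 155.1 and 110.0 (1.41-fold higher), 21.0 and 42.8 (2.04-fold lower) and 23.8 and 8.2 (at least 1.17-fold higher). With 1.52 log2 units between the lowest and the highest, no single direction can be given for Slc25a30. Slc25a27 was under the floor by all its probe sets.

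In all, 7 members did not reach the floor on either array, after scaling, by any of their 13 probe sets: Slc25a2, Slc25a27, Slc25a31, Slc25a41, Slc25a48, Slc25a53 and Ucp1. Their deposited signals lay between 0.8 and 20.4 with IFNg and between 0.8 and 19.5 untreated, the highest being a probe set of Slc25a27 that fell just short of the floor once scaled. No ratio is given for them.

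Other genes of the mitochondrial membrane and matrix were set beside the carriers. Of all measured genes, 8.82% were at least 2-fold higher and 4.48% at least 2-fold lower, with a median log2 ratio of -0.12. At 1.5-fold the shares were 17.9% higher and 18.7% lower. The lists below are short beside these shares, and no difference from them was tested. Genes for import and insertion of carriers, which bring the newly made proteins through the outer membrane and into the inner one, had a median log2 ratio of -0.36. None of 14 passed 2-fold and 3 were at least 1.5-fold lower, namely the channel Tomm40 (310.9 with IFNg and 516.5 untreated), the insertase Timm22 (335.8 and 527.3) and its partner Timm29 (243.4 and 381.5). The number at least 1.5-fold lower was 1 with a loess curve and 4 with a common 75th percentile. The receptor Tomm70a, which recognises carrier precursors, had 216.8 with IFNg and 152.1 untreated.

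The ATP synthase list, made of subunit genes and the gene of the inhibitory factor Atpif1, had a median of -0.41. Of its genes, 15 of 16 were below 0, none passed 2-fold and 3 were at least 1.5-fold lower. The 3 were Atp5g1 (739.6 with IFNg and 1451.6 untreated), Atp5j (1405.6 and 2176.1) and Atp5g3 (3728.8 and 5746.8). With a loess curve 1 was at least 1.5-fold lower and the median was -0.27. With a common 75th percentile 6 were at least 1.5-fold lower and the median was -0.48. Of the enzymes of the malate-aspartate shuttle and of citrate export, none of 12 passed 2-fold and 4 were at least 1.5-fold lower, with a median of -0.37. These 4 were citrate synthase Cs (962.0 with IFNg and 1660.5 untreated), the malate dehydrogenase Mdh2 (2148.3 and 3645.0), the mitochondrial aspartate aminotransferase Got2 (1232.9 and 1912.0) and the isocitrate dehydrogenase Idh2 (348.4 and 525.1). Their cytosolic counterparts Mdh1 (1164.2 and 1005.4) and Got1 (395.9 and 441.6) were within 1.5-fold. For these 12 enzymes the number at least 1.5-fold lower was 2 with a loess curve and 5 with a common 75th percentile. As reported, 18.7% of all measured genes were at least 1.5-fold lower.

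Other mitochondrial transporters, among them the outer membrane channels and the calcium uniporter, had a median of -0.21, with none of 18 past 2-fold, 1 at least 1.5-fold higher and 3 at least 1.5-fold lower. Letm1, an ion exchanger of the inner membrane, had 99.6 with IFNg and 189.9 untreated, Sfxn3 had 245.6 and 406.2, and Mtch1, a distant relative of the carriers in the outer membrane, had 1149.6 and 1770.7. The uniporter regulator Micu2 had 434.9 with IFNg and 263.9 untreated. The pyruvate carrier subunit Mpc1, which belongs to another family, had 669.1 and 882.0. Of the 18 genes, 2 were at least 1.5-fold lower with a loess curve and 4 with a common 75th percentile.

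Among 15 measured regulators of mitochondrial gene expression, 3 were at least 2-fold higher and 1 at least 2-fold lower, with a median of 0.19. The shares of all measured genes were 8.82% higher and 4.48% lower, and 15 genes are few to set against them. The ETS factor subunits Gabpa (153.1 with IFNg and 60.6 untreated) and Gabpb1 (81.0 and 39.9) and the mitochondrial transcription factor Tfb2m (137.1 and 65.2) were higher. Pparg, a nuclear receptor of lipid metabolism, had 27.8 with IFNg and 79.2 untreated, 2.85-fold lower. Gabpa was 2.53-fold, Gabpb1 2.03-fold and Tfb2m 2.10-fold higher. With a common 75th percentile or quantile normalisation 1 of these 3 stayed past 2-fold.

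**Figure D4:**
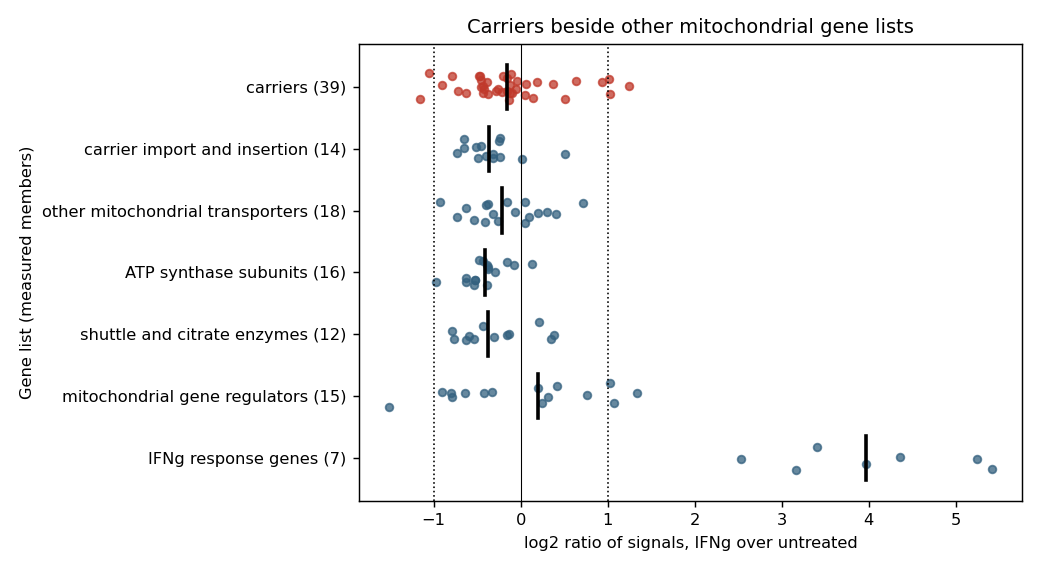
Log2 ratio of IFNg over untreated (horizontal axis) for measured members of the carrier family and of 6 further gene lists, 1 point per gene and a bar at each median, with the number of genes in brackets and dotted lines at 2-fold. Carriers have a median of -0.16 and points past 2-fold on both sides, the ATP synthase list sits left of 0 with 1 exception, and the IFNg response genes lie far to the right, with a median of 3.97.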

How the data were processed

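Total RNA of 2 cultures, 1 with IFNg and 1 untreated, was amplified, labelled with biotin and hybridised, 1 array per culture, per the labels' protocols. The authors deposited 1 linear signal intensity for each of 45101 probe sets, the lowest 0.1 and the highest 14895.6. Each deposited array has a mean of 100.001 after trimming 2% at each end, as seen in the values. For the software, background correction and detection calls: not given in the sources used here.

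After leaving out 64 control probe sets, arrays were brought to a common trimmed mean (factors 0.999924 for IFNg and 1.000076 for untreated), any signal below 20.4, the pooled median, was raised to it before taking log2. Above it were 50.4% of probe sets with IFNg and 49.7% untreated. Where 1 array was below it the ratio is a bound. Names were those of the platform annotation, updated through Entrez identifiers in the GRCm38.p6 gene table. Of the probe sets, 34945 name 1 gene, 932 several and 9160 none. Each gene was represented by its brightest probe set (mean log2 over both arrays) that names no other gene. Promoters came from RefSeq (GRCm38.p6). Some items are not reported here.

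Members and lists were chosen with earlier results of these data known. With 1 array per group no test was made. The rule for named genes was to give every carrier, all measured probe sets of those at least 1.5-fold apart or with probe sets over 1 log2 unit apart, and in other lists up to 4 members with the largest differences and any 2-fold the other way. Other probe sets and further genes were named to show values within the thresholds. The alternatives were other scalings (none, 75th percentile, quantile, loess), floors at the 25th and 75th percentiles, a pseudocount of 16, probe sets averaged or without shared-sequence IDs, and 3-fold. The procedure was tested on simulated arrays. Python 3.11.15 was used with matplotlib 3.10.9, statsmodels 0.14.6, scipy 1.17.1, pandas 2.3.3 and numpy 2.4.6.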

Additional observations from a re-analysis of the deposited data

How the results depend on the processing

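The carriers' median log2 ratio stayed between -0.24 and -0.13 under all 9 alternatives to scaling, floor and probe-set rule. No carrier past 2-fold changed sign, but this says little about stability. Another floor or a pseudocount cannot turn a sign, and the scalings moved ratios too little to turn one past 2-fold. Averaging could not either. Slc25a23 and Slc25a37 have 1 probe set each, and the measured probe sets of Slc25a29, Slc25a36 and Slc25a46 agree in sign within each gene. The number at least 2-fold higher was 3 as reported and 1 with a common 75th percentile, with quantile normalisation, with a pseudocount of 16 and with probe sets averaged per gene. The number at least 2-fold lower was 2 as reported and 3 with the floor at the 25th percentile, where Slc25a54 was added. With averaging it was 1, Slc25a23. With the pseudocount it was also 1, but this was Slc25a54 (log2 ratio -1.13). Slc25a23 (-0.95) and Slc25a29 (-0.76) then fell short of 2-fold. It was 0 with the floor raised to the 75th percentile of both arrays, which leaves 23 carriers. That floor also left 2 carriers at least 1.5-fold lower, and averaging left 3 at least 1.5-fold higher. Averaging counted probe sets under the floor on both arrays as a log2 ratio of 0. Averages that include such probe sets, among them those of Slc25a29 and Slc25a32, are therefore drawn toward 0. At 3-fold both counts were 0. The split of all genes past 2-fold was 1124 higher and 571 lower as reported, and 971 higher and 751 lower with a common 75th percentile. Of 334 single-carrier values under the alternatives, 322 moved by less than the SD of 0.44 between probe sets and 12 by more, 7 of those by averaging. Many of the 322 could hardly move. The deposited arrays already had almost the same trimmed mean, and the lower floor left carriers above the floor on both arrays unchanged. Averaging could not alter carriers with 1 probe set. The 322 is therefore no measure of how stable the values are. Slc25a16, Slc25a28, Slc25a4 and Slc25a5, none over 0.06 from 0 on the log2 scale, changed sign under 1 or 2 scalings. Averaging probe sets turned the sign of Slc25a24, 1.5-fold higher as reported, to -0.06 and of Slc25a51 to 0.40. The cause of these shifts was not tested. No paired analysis was possible because each group has 1 array. Signals near the floor limit what can be said of dim carriers, and how much background they hold is not known.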
